A study of Mus musculus with 144 samples.

Results

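The livers of 3 SM/J females on chow were compared with those of 27 females of 9 other inbred mouse strains on the same diet. They are 3 of the 144 arrays of the series and were chosen by the labels alone: strain SM, female, the low-fat diet. The other strains, with 3 females each, were C57BL/6J, NZB/BINJ, A/J, I/LnJ, DBA/2J, 129S1/SvImJ, C3H/HeJ, BALB/cJ and MRL/MpJ-Tnfrsf6lpr/J, the last of which carries the lpr mutation. The study measured liver RNA in males and females of 12 strains, fed either regular chow with 6% fat or an atherogenic diet with 30% fat and cholic acid, with 3 animals for each strain, sex and diet. Each array held the liver of 1 animal, and all mice used here were killed at 11 to 13 weeks of age. CAST/EiJ and PERA/Ei were left out because they were over 50 weeks old, and SM/J males because their diet labels are in doubt. SM/J is an inbred strain that was started from animals selected for small body size, and an inbred strain is a single genotype, so a difference of SM/J is a difference of that genotype and of whatever its animals shared.

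Liver RNA comes mostly from hepatocytes, which make the plasma proteins, synthesise cholesterol and bile acids and clear hormones and drugs. The remainder comes from Kupffer cells, the macrophages that line the sinusoids, and from endothelial, stellate and other immune cells. Many hepatocyte genes differ between the sexes under the control of growth hormone, and many follow the time of day through the circadian clock or the feeding state through insulin and glucocorticoids.

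Values are log2 intensities of 18193 genes, each represented by 1 probe set, and a difference is the SM/J mean minus the mean of the 9 strain means, so that 1 unit is a 2-fold difference. It is given with its standard error and with limma's p adjusted by Benjamini-Hochberg over all genes, and genes with an adjusted p under 0.05 are called higher or lower. The median value of an array lay between 5.02 and 5.08, and fold differences of genes near or below that level can be understated because background is a large part of their signal. In every SM/J gene below, the 3 values follow the replicate numbers of the labels. The labelled diets were checked with Sqle, an enzyme of cholesterol synthesis that dietary cholesterol lowers. It lay at 7.83 to 9.57 in the SM/J females on chow and at 4.81 to 4.98 in those on the atherogenic diet. In the other strains it lay at 5.43 to 10.80 and 4.32 to 5.52. These ranges of the other strains overlapped, so the level of Sqle alone did not separate the diets across all their arrays. Alb, the albumin gene of hepatocytes, had a median of 14.54 in SM/J and in the other strains. The SM/J arrays varied more among themselves than those of most strains, with correlations of 0.991 to 0.993 to their own strain against 0.995 to 0.997 in 7 of the other 9. The standard errors pool the spread within all strains, so they can be too small where the SM/J arrays varied more.

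SM/J differed from the mean of the 9 strains in 2015 of 18193 genes (11.1%), with 1105 higher (6.07%) and 910 lower (5.0%). At 2-fold or more, 78 genes were higher (0.429%) and 77 lower (0.423%). In 111 genes (0.61%) all 3 SM/J arrays lay above all 27 others, and in 78 (0.429%) below. The number called was within the range of the other strains when each was set against the rest in the same way, from 1017 genes for DBA/2J to 2169 for BALB/cJ. The median difference over all genes was 0.01, and the median size among the called genes was 0.38. Of the called genes, 798 (4.39% of all genes) had an SM/J mean above all other 9 strain means, 589 (3.24%) had one below, and 628 lay within their range. Without SM/J array 2 the count was 1302, and without array 3 it was 1389.

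**Figure D1:**
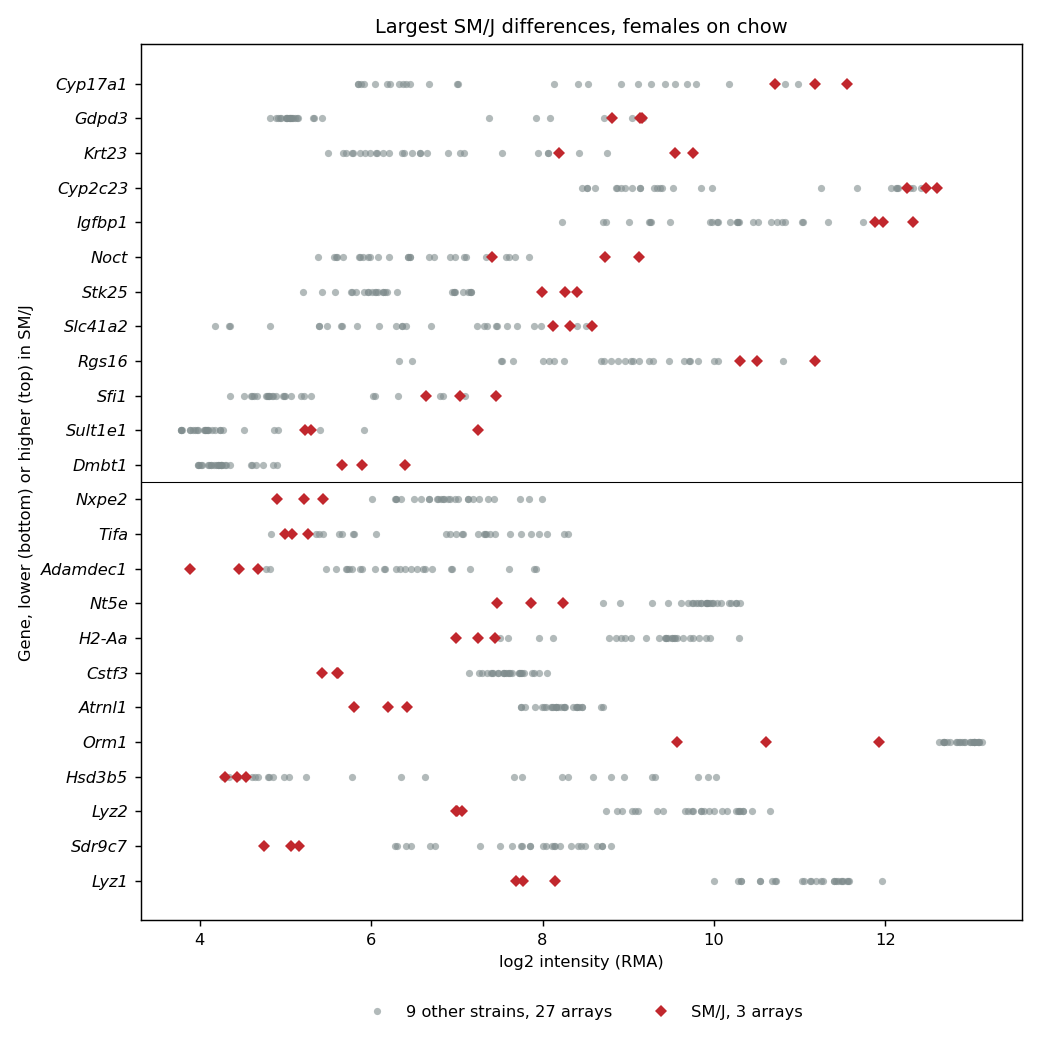
Log2 intensity (horizontal axis) of the 12 genes with the largest positive and the 12 with the largest negative difference among called genes whose SM/J mean lay outside the range of the other strain means, 1 point per array. The 3 SM/J arrays (red diamonds) stand apart from all 27 others (grey) for Lyz1, Lyz2, Orm1, Cstf3 and Atrnl1, and overlap with some arrays for Cyp17a1, Gdpd3 and Hsd3b5.

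The largest fall with no overlap was in the lysozyme genes. Lysozyme cleaves the peptidoglycan of bacterial cell walls, and in the mouse Lyz2 is the form of macrophages and granulocytes while Lyz1 is best known from Paneth cells. Lyz1 was at 7.69, 7.77 and 8.14 in the SM/J arrays and at 9.998 to 11.96 in the other 27, with a median of 11.19. Its difference was -3.20 (SE 0.12, adjusted p = 7.1e-16), which is 9.22-fold. Lyz2 was at 6.99, 6.997 and 7.06 in SM/J against 8.74 to 10.66 with a median of 9.85 in the others, a difference of -2.77 (SE 0.12, adjusted p = 1.3e-14). No array of another strain reached down to the SM/J values of either gene. The next lowest strain was I/LnJ for both, with means of 10.20 for Lyz1 and 8.89 for Lyz2. A second bright probe set of Lyz1 gave -3.12 (adjusted p = 1.8e-15), while another, near background, gave -0.10 and was not called.

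Lyz1 and Lyz2 are neighbouring genes that arose by duplication, so their probe sets may share signal. The 250 bases before the start of each, from the C57BL/6J reference (RefSeq, GRCm38.p6), are shown because both genes were low together. They are on the minus strand at chr10:117292869-117293118 for Lyz1 and chr10:117282273-117282522 for Lyz2, and capitals mark the longest stretch of letters that they share, which is 50 bases long and ends at the start of transcription.
Lyz1: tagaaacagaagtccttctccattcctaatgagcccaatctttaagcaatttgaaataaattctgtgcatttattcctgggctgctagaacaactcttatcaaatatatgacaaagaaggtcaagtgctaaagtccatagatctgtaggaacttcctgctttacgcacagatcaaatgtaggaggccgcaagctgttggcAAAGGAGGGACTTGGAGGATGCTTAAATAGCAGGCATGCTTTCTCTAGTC
Lyz2: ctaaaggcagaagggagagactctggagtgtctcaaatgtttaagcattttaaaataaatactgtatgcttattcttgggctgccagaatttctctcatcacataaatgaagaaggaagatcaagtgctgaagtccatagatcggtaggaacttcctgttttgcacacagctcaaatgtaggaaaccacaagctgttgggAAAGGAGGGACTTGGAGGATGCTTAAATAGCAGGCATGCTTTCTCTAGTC
Aligned over their full length the windows were identical at 200 of 252 positions (79.4%). The sequence of SM/J itself was not used here.

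**Figure D2:**
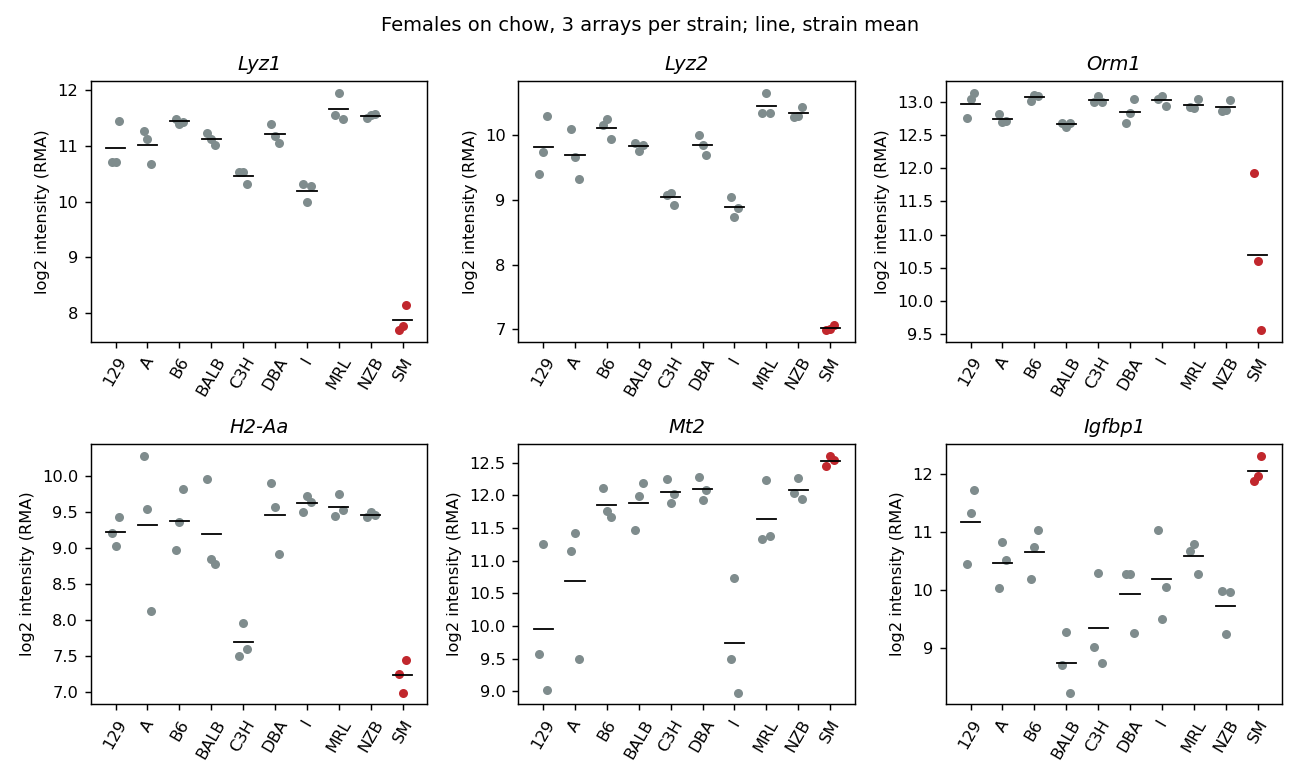
Log2 intensity (vertical axis) in each strain (horizontal axis; B6 is C57BL/6J, and the other labels are the first part of each strain's name) for 6 genes, 1 point per array and a line at the mean of 3. SM/J (red) is lowest for Lyz1, Lyz2, Orm1 and H2-Aa and highest for Mt2 and Igfbp1, and C3H/HeJ is the strain nearest to it for H2-Aa.

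Of 12 macrophage markers, 6 were lower and 1 higher in SM/J, and the median difference of the list was -0.47. Over all genes 5.0% were lower and 6.07% higher, with a median of 0.01, and every list count on chow below can be read against these shares. Besides Lyz2 the lower ones were Cd5l, a secreted protein of Kupffer cells (-0.70, adjusted p = 0.00232), Vsig4, a complement receptor (-0.66), Adgre1, a surface receptor of tissue macrophages (-0.63), Csf1r, the receptor of the macrophage growth factor (-0.56), and C1qa (-0.41). Marco, a scavenger receptor, was higher (0.61, adjusted p = 0.0352). Apart from Lyz2 these genes overlapped between SM/J and the others. Adgre1 was at 7.69, 7.03 and 6.99 in SM/J against 7.15 to 8.66 in the others, and Csf1r at 10.81, 10.34 and 10.29 against 10.10 to 11.52. Array 1 had the highest value of the 3 for both. Cd5l was not called without array 2 (-0.53), C1qa without array 2 or array 3 (-0.30 in both cases), and Marco without array 1 (0.32) or array 3 (0.72).

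The summed level of the 12 macrophage markers, as log2 of the sum of intensities, was 12.26, 12.32 and 12.94 in the SM/J arrays, ordered by size, and 12.39 to 13.66 with a median of 13.06 in the others. Lyz2 is part of that sum. Without array 1, 11 of the 12 were lower, and without array 2 or 3 the lower ones numbered 4 and 5. In bulk tissue, fewer cells of a type and less RNA per cell cannot be told apart. Of the other immune lists, Ptprc, the pan-leukocyte antigen CD45, was lower (-0.90) as the only one of 8 T and NK cell genes called, and S100a8 (-0.78) as the only one of 7 neutrophil genes, a call that was lost without any single SM/J array. Jchain (-1.09) and Ighm (-0.65) were lower among 5 B and plasma cell genes, but without NZB/BINJ they differed by -0.60 and -0.19 and were not called. Neither was called without array 2 or without array 3. The summed hepatocyte markers lay between 16.69 and 16.70 in SM/J and between 16.64 and 16.70 in the others. Among 9 stellate cell and matrix markers limma called 0, with 0 at an unadjusted p under 0.05, and among 5 cholangiocyte markers 0, with 0.

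Genes of MHC class II, which present peptides on macrophages, dendritic cells and B cells, were low. H2-Aa was at 7.24, 6.99 and 7.45 in SM/J, below all other arrays (7.50 to 10.29, median 9.44), and differed by -1.99 (SE 0.26, adjusted p = 5.1e-06). H2-Ab1 (-1.60), Cd74, the invariant chain (-1.45), and H2-Eb1 (-1.30) were also lower, with overlapping arrays. C3H/HeJ was nearly as low as SM/J for H2-Aa, with a strain mean of 7.69, and was lower than SM/J for H2-Ab1 (6.59) and H2-Eb1 (7.26). Of the 21 class I and II genes measured, 6 were lower and 3 higher, with a median of -0.12.

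The higher ones were the class I genes H2-K1 (0.99), H2-D1 (0.72) and H2-Q10 (0.37). H2-D1 was at 12.13, 11.96 and 11.95 in SM/J and at 8.12 to 12.47 in the others, with low strain means of 8.15 in MRL/MpJ-Tnfrsf6lpr/J and 8.35 in C3H/HeJ. Without the former the difference was 0.33, and averaged over its probe sets, which ranged from -2.99 to 2.38, it was -0.31. The class I genes are highly variable between strains, and no probe was matched to the SM/J alleles. Averaged over its probe sets H2-Aa differed by -1.06 and was still called.

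Of 26 acute phase genes, 10 were lower and 4 higher, and the list's median was -0.26. These are plasma proteins that hepatocytes make more of, or less of, during inflammation. Orm1, the major alpha-1-acid glycoprotein, was at 11.93, 10.61 and 9.56 in SM/J against 12.62 to 13.13 with a median of 12.93 in the others, a difference of -2.21 (SE 0.21, adjusted p = 3.4e-08). The SM/J arrays lay far apart from each other (standard deviation 1.18), and all were below the 27 others, which spanned a narrow range. The standard error and p pool the spread within all strains, so they overstate the precision of the SM/J mean for this gene. Its neighbours Orm3 (-1.22, adjusted p = 8.2e-07) and Orm2 (-1.10, adjusted p = 0.0176) were lower as well, both with overlapping arrays. I/LnJ was as low as SM/J for Orm3, with a strain mean of 5.71. Orm2 was not called without array 2 (-0.86) or array 3 (-0.68).

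Apcs, serum amyloid P component, was at 12.19, 10.81 and 10.91 against 11.81 to 13.54, a difference of -1.60 (SE 0.15, adjusted p = 2.1e-08). Itih3, a heavy chain of the inter-alpha-trypsin inhibitor that binds hyaluronan, was at 12.33, 12.18 and 12.18, below all others (12.64 to 13.18). Its difference was -0.68 (SE 0.06, adjusted p = 9.1e-09). Fga, a fibrinogen chain, was lower by a smaller amount (-0.36). The higher members were Mt1, Mt2, Il1rn (0.49) and Saa4 (0.34). Saa4 was not called in 23 alternative settings and was at 0.15 without array 2. Without array 2 or without array 3, 5 members were lower and 2 higher. Of 25 complement genes, 8 were lower, with Masp1, a protease of the lectin pathway (-0.53), and C6 (-0.52), which was not called without array 2 or array 3, the lowest, and Hc, which encodes C5 (0.51), and C2 (0.47) were higher. Without array 3, 3 complement genes were lower and 3 higher.

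**Figure D3:**
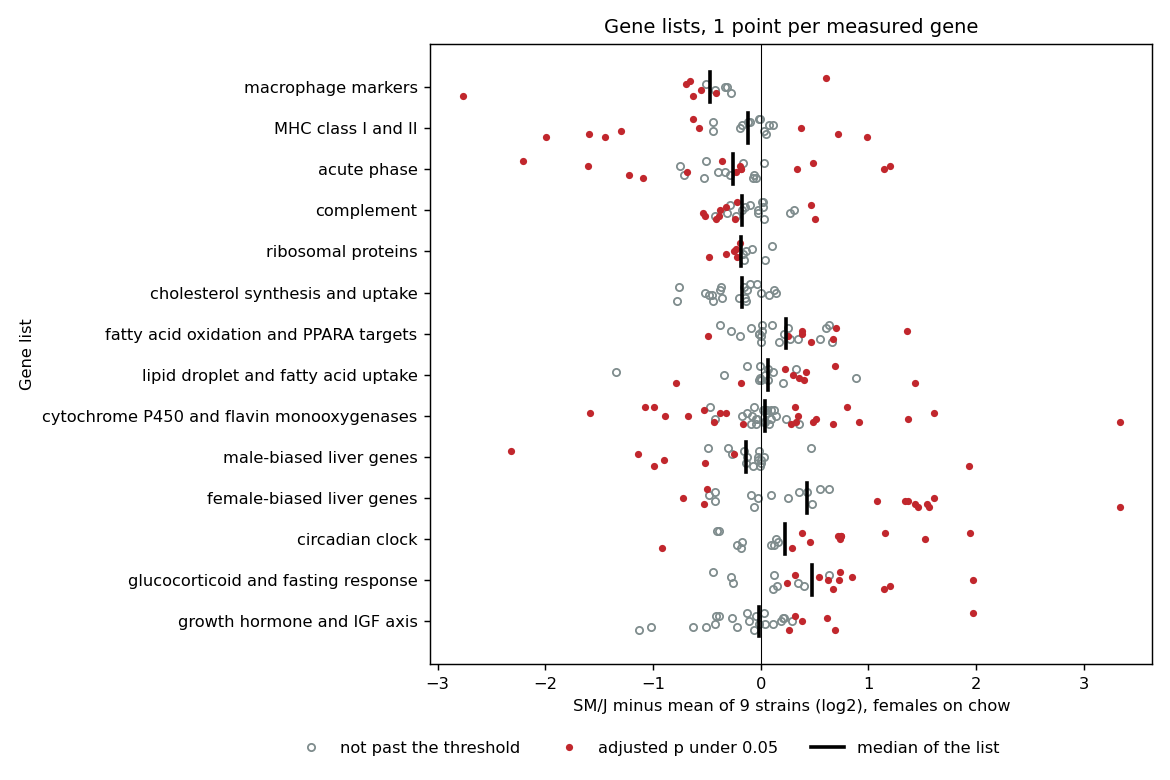
Difference of SM/J from the mean of 9 strains on chow (horizontal axis, log2) for the measured genes of 14 gene lists (vertical axis), with called genes filled in red and the median of each list as a bar. The median lies at -0.47 for macrophage markers and at 0.47 for the glucocorticoid and fasting response, and no gene of cholesterol synthesis is called.

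Several genes that are higher in female than in male mouse liver were higher in SM/J females, and several that are higher in males were lower. Of 25 female-biased genes 9 were higher and 3 lower, with a median of 0.43, and of 22 male-biased genes 1 was higher and 6 were lower, with a median of -0.14. Without array 2, 3 male-biased genes were lower and 1 higher, and without array 3, 3 were lower and 2 higher. Cyp17a1, the enzyme that makes androgen precursors from progestins, was at 11.18, 10.71 and 11.56 in SM/J and at 5.84 to 10.98 with a median of 7.01 in the others. It differed by 3.33 (SE 0.25, adjusted p = 2.5e-10), which is 10.1-fold. The 129S1/SvImJ females, with a mean of 10.45, came near, and the arrays overlapped.

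Cyp2b13 (1.61) and Cyp2b9 (1.37), neighbouring cytochromes P450 of drug and steroid metabolism, and the sulfotransferases Sult3a1 (1.57) and Sult2a2 (1.54) were higher in SM/J than the mean of the other strains. Their sizes rested on single strains that lay near background. Cyp2b13 was at 5.02 and Cyp2b9 at 4.26 in 129S1/SvImJ, and without that strain they differed by 0.93 and 0.55. Sult3a1 was at 4.02 in BALB/cJ, without which it differed by 0.68, and Sult2a2 at 4.69 in I/LnJ, without which it differed by 0.69. All 4 were still called. Vldlr, a lipoprotein receptor (1.47), was higher too, though below the mean of NZB/BINJ (8.38), and so was Cd36, a fatty acid transporter (1.44). Cd36 was at 10.31, 10.82 and 10.50, above all others (7.70 to 10.28).

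Among the male-biased genes, Hsd3b5, a hydroxysteroid dehydrogenase, was at 4.44, 4.29 and 4.54 in SM/J and at 4.27 to 10.02 with a median of 6.35 in the others. Its difference was -2.32 (SE 0.43, adjusted p = 0.000425). The level in SM/J was at background, as in C57BL/6J and 129S1/SvImJ with means of 4.60 and 4.58, and I/LnJ had the highest, 9.92. Elovl3, a fatty acid elongase (-1.14, adjusted p = 0.0225), Cyp2d9 (-0.99) and Cyp7b1, the oxysterol hydroxylase (-0.90), were lower too. Elovl3 was not called without array 2 (-1.17) or array 3 (-0.70). Slco1a1, an organic anion transporter, went the other way: it was at 11.14, 10.93 and 10.09 against 5.04 to 11.15 with a median of 8.92, a difference of 1.93 (SE 0.44, adjusted p = 0.00348).

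Of 45 cytochromes P450, flavin monooxygenases and aldehyde oxidases, 12 were higher and 10 lower, with a median of 0.04, and without array 2, 7 were higher and 8 lower. After Cyp17a1, Cyp2b13 and Cyp2b9 the largest were Cyp2c55 (-1.59), Cyp2c37 (-1.07) and Cyp2d9. Cyp2c23, an epoxygenase of arachidonic acid that was not in that list, was at 12.60, 12.48 and 12.25 against 8.47 to 12.42 with a median of 9.37, a difference of 2.36 (SE 0.17, adjusted p = 1.1e-10). C57BL/6J (12.29), MRL/MpJ-Tnfrsf6lpr/J (12.11) and 129S1/SvImJ (11.75) came near SM/J, and the other 6 strain means were at 9.56 or lower. Sult1e1, the oestrogen sulfotransferase, was at 5.22, 5.30 and 7.25 against 3.78 to 5.92, a difference of 1.70 (SE 0.25, adjusted p = 3.0e-05), and without array 3 of 1.04. Sdr9c7, a short-chain dehydrogenase, was at 4.75, 5.06 and 5.16, below all others (6.28 to 8.79), a difference of -2.78 (SE 0.13, adjusted p = 3.2e-14). Its neighbour Hsd17b6, a hydroxysteroid dehydrogenase, was lower by -1.11 (SE 0.12, adjusted p = 4.1e-07).

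Of 20 genes of the glucocorticoid and fasting response, 11 were higher in SM/J and 0 lower, with a median of 0.47. Without array 2, 6 were higher. The list shares Mt1 and Mt2 with the acute phase list and Per1 with the clock list. Igfbp1, a binding protein of insulin-like growth factors that hepatocytes release when insulin is low, was at 11.88, 11.97 and 12.32, above all other arrays (8.22 to 11.73, median 10.27). Its difference was 1.97 (SE 0.30, adjusted p = 4.2e-05). Pck1, the gluconeogenic enzyme PEPCK (0.85, adjusted p = 0.00225), Angptl4, an inhibitor of lipoprotein lipase (0.73, adjusted p = 0.0456), Sgk1, a kinase induced by glucocorticoids (0.67), Tat, tyrosine aminotransferase (0.63), and Klf9 (0.54) were higher with overlapping arrays. Pck1 at 0.61 and Tat at 0.50 were not called without array 2. Angptl4 was not called when any of several single arrays was left out. Feeding state and hour of killing are not given in the sources used here, and their part in these differences was not tested.

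Metallothioneins bind zinc and copper and are induced by metals, glucocorticoids and inflammation. Mt1 was at 12.95, 13.22 and 13.26, above all others (10.27 to 12.87, median 12.45), and differed by 1.15 (SE 0.25, adjusted p = 0.00265). Mt2 was at 12.45, 12.61 and 12.54, above all others as well (8.98 to 12.29, median 11.76), and differed by 1.20 (SE 0.34, adjusted p = 0.0188). The other strains spread widely, with I/LnJ lowest at 10.69 for Mt1 and 9.74 for Mt2, and without any single SM/J array the Mt2 difference, 1.16 to 1.24, was not called.

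The windows of 250 bases before their starts are shown because both genes were high together (RefSeq, GRCm38.p6, plus strand, chr8:94178839-94179088 for Mt1 and chr8:94172368-94172617 for Mt2). Capitals mark matches on either strand to the core of the metal response element, TGCACNC or TGCGCNC.
Mt1: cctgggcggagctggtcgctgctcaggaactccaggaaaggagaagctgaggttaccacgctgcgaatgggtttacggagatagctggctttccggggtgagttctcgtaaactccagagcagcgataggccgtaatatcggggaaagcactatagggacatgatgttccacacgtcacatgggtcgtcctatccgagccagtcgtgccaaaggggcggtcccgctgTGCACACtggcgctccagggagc
Mt2: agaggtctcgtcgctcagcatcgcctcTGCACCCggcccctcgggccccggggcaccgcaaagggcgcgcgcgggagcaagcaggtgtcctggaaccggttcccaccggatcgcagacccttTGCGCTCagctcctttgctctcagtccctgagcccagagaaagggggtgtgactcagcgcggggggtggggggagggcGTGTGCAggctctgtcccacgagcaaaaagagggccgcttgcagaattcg
Within these windows Mt1 had 1 match and Mt2 had 3. Each window ends at the start listed by RefSeq, and bases outside it were not searched. The counts therefore do not give the number of such elements in either gene. Among 32851 such windows, 21.4% held at least 1 match and 1.26% held 3 or more.

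Clock proteins form a feedback loop: ARNTL and CLOCK activate the Per and Cry genes and the D-box factors Dbp, Tef and Hlf, and PER and CRY then repress ARNTL and CLOCK. Of 20 clock genes 10 were higher and 1 lower, with a median of 0.23. Dbp was at 10.84, 11.51 and 11.17 in SM/J against 6.13 to 11.52 with a median of 10.12, a difference of 1.52 (SE 0.35, adjusted p = 0.00423). Arntl was at 6.06, 5.76 and 5.91 against 5.64 to 7.92 with a median of 6.91, a difference of -0.91 (SE 0.16, adjusted p = 0.00029). Noct, a clock output gene that encodes nocturnin, was at 7.42, 9.13 and 8.73 against 5.38 to 7.84, a difference of 1.94 (SE 0.38, adjusted p = 0.000907).

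Without array 2 Noct remained called. Per3 (1.16), Usp2 (0.75), Tef (0.75), Per1 (0.74) and Per2 (0.72) were also higher, and all of these genes overlapped with arrays of other strains. Averaged over its probe sets Per2 differed by 0.33 and was not called, and its other probe sets, about as bright, each gave 0.13. Averages for Per3 (0.45), Usp2 (1.21) and Arntl (-0.56) were still called, though the probe sets of Per3 ranged from -0.40 to 1.16. Without array 2, 4 clock genes were higher and 1 lower, and Dbp (1.36), Tef (0.56), Usp2 (0.49) and Per2 (0.31) were not called. Nr1d1 and Clock were not called in the full set. Fos (1.73, adjusted p = 0.0108) and Jun (1.55, adjusted p = 0.0107), immediate early genes that respond to handling and stress, were higher too, and Egr1 differed by 0.90 (adjusted p = 0.0562). Fos was at 7.44, 8.88 and 6.73 against 4.60 to 9.39, and Jun at 7.56, 8.89 and 7.40 against 4.79 to 8.31. On the atherogenic diet Fos, Jun and Egr1 differed by -1.32, -0.88 and -0.63, and none was called. These 3 genes were chosen after values were seen, and their part in the clock and fasting lists was not tested.

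Per1 and Per3 carry the letters of clock elements in the windows before their starts, which are shown for that reason (RefSeq, GRCm38.p6). Per1 is on the plus strand at chr11:69098699-69098948, the first of 2 starts in the table, and Per3 on the minus strand at chr4:151044666-151044915. Capitals mark matches on either strand to the E-box CACGTG, to which ARNTL and CLOCK bind, or to the D-box TTATGTAA, to which DBP, TEF and HLF bind.
Per1: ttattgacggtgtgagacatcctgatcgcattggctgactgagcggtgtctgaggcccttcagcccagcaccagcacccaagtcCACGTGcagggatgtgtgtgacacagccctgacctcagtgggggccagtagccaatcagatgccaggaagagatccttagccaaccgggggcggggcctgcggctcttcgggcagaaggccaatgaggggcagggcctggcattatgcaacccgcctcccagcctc
Per3: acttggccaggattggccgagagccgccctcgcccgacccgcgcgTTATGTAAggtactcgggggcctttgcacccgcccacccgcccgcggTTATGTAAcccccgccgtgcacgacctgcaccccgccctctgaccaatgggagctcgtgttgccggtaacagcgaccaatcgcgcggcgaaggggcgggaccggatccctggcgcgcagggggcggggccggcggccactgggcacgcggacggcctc
Per1 had 1 E-box match, its second start had none, and Per3 had 2 D-box matches. Of the 32851 windows 6.02% held the E-box letters and 0.819% held those of the D-box.

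**Figure D4:**
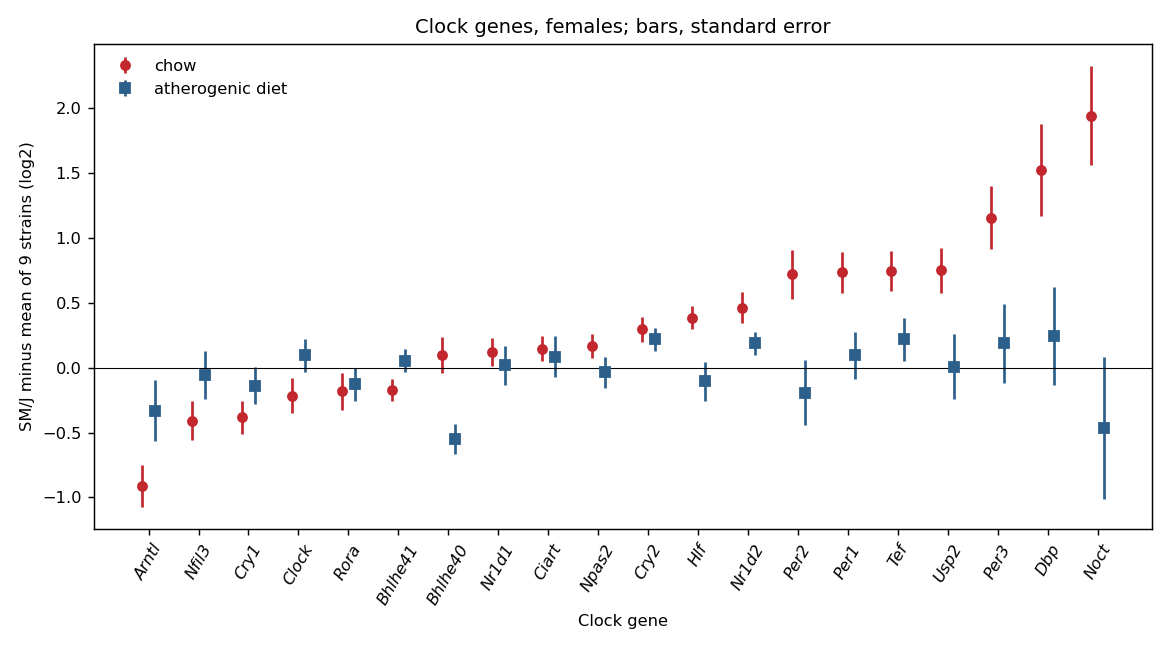
Difference of SM/J from the mean of 9 strains (vertical axis, log2, with standard error) for 20 clock genes (horizontal axis) in females on chow (red circles) and on the atherogenic diet (blue squares). On chow Noct, Dbp and Per3 lie at 1.94, 1.52 and 1.16 and Arntl at -0.91, while on the other diet the same genes lie at -0.47, 0.25, 0.19 and -0.33.

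On the atherogenic diet, with other animals, the clock list had a median of 0.01, with 0 genes higher and 1 lower, where 4.56% of all genes were higher and 6.37% lower. Noct differed by -0.47 there, Dbp by 0.25 and Arntl by -0.33, none of which was called. Whether the difference itself changed with diet was tested across all genes, and no clock gene passed (adjusted p = 0.493 for Dbp, 0.613 for Arntl and 0.152 for Noct).

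Of 20 genes of cholesterol synthesis and uptake limma called 0, with 3 at an unadjusted p under 0.05, and without array 1 it called 2 lower. Hmgcs1, which makes HMG-CoA, differed by -0.78 and Sqle by -0.44, and the list's median was -0.18. Of 24 genes of fatty acid synthesis 3 were lower, and without array 2 the number was 1. Acss2, acetyl-CoA synthetase, had the largest difference (-0.77), a call that was lost without any single SM/J array. Of 28 genes of fatty acid oxidation and PPARA targets 7 were higher and 1 lower, with a median of 0.24. The higher ones included the acyl-CoA thioesterases Acot1 (1.36) and Acot2 (0.70), Aldh3a2 (0.67) and Ppara itself (0.47). Acot1 was at 9.59, 10.20 and 10.27 against 6.97 to 10.04, and it was not called without array 2 (1.27) or array 3 (1.23). Without array 1, 12 genes of this list were higher, and without array 3 the number was 3.

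Of 23 genes of lipid droplets and fatty acid uptake 7 were higher and 2 lower, and 2 and 1 without array 2. After Cd36 the largest were Fitm1 (-0.79), which packages lipid into droplets, and Hsd17b13 (0.69), which at 0.15 was not called without C3H/HeJ. A dimmer probe set of Hsd17b13 was lower (-0.51, adjusted p = 0.000161). Averaged over its probe sets Hsd17b13 differed by 0.09 and was not called. Of 26 apolipoprotein and lipoprotein genes 4 were higher and 6 lower, and 2 and 4 without array 3. Apoa4, an apolipoprotein of triglyceride transport, was at 9.92, 9.99 and 10.22 against 9.52 to 13.81 with a median of 11.32, a difference of -1.27 (SE 0.14). Apobec1, the enzyme that edits Apob RNA, was at 7.04, 6.82 and 7.19, below all others (7.22 to 8.85), a difference of -0.78. Angptl8 (-0.97, not called at -0.65 without array 3) and Pltp, the phospholipid transfer protein (-0.86), were lower too.

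Of 14 bile acid synthesis genes 3 were higher and 2 lower. Cyp39a1, an oxysterol hydroxylase, was at 8.60, 9.16 and 9.64 against 3.92 to 9.65 with a median of 7.67, a difference of 1.72 (SE 0.20, adjusted p = 7.3e-07). Amacr, a racemase of side chain oxidation (0.91), and Cyp8b1, which makes the precursors of cholic acid (0.59), were higher, and Cyp7b1 was lower. Cyp46a1 differed by -0.45, and by 0.01 without C3H/HeJ, whose mean was 9.41 where SM/J was at 5.12, 5.30 and 5.53. Cyp7a1, the rate-limiting enzyme of bile acid synthesis, differed by 0.61 and was not called. Of 23 glucose genes 4 were higher and 2 lower, and without array 1, 2 or 3 the higher ones numbered 8, 2 and 3. Ppp1r3g, a glycogen-targeting subunit of protein phosphatase 1, was at 4.73, 7.42 and 7.34 (1.55) and was not called without array 2 or array 3, and Ppp1r3c, another, was lower (-1.01).

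The other genes with the largest differences belonged to no list. Gdpd3, a lysophospholipase D, was at 8.81, 9.16 and 9.13 in SM/J and at 4.82 to 9.18 with a median of 5.07 in the others, a difference of 3.23 (SE 0.11, adjusted p = 9.2e-17). It was at the SM/J level in 129S1/SvImJ, with a mean of 8.98, at 7.80 in I/LnJ, and between 4.96 and 5.17 in the other 7 strains. Krt23, a type I keratin, was at 8.20, 9.75 and 9.55 against 5.49 to 8.75 (2.52, SE 0.22). Stk25, a serine/threonine kinase, was at 8.41, 7.99 and 8.27, above all others (5.21 to 7.16), a difference of 1.92 (SE 0.08, adjusted p = 7.9e-15).

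Dmbt1, a secreted scavenger receptor protein, was at 6.40, 5.89 and 5.66, above all others (3.97 to 4.90), a difference of 1.69 (SE 0.11). Slc41a2, a magnesium transporter (1.89), Rgs16, a regulator of G protein signalling (1.88), and Sfi1, a centrin-binding protein (1.83), were higher with overlapping arrays. Nt5e, the ectonucleotidase CD73, was at 8.24, 7.47 and 7.86, below all others (8.70 to 10.30), a difference of -1.97 (SE 0.11, adjusted p = 1.9e-12). Adamdec1, a metalloprotease-like protein of macrophages and dendritic cells, was at 4.46, 3.88 and 4.69, below all others (4.78 to 7.92). Its difference was -1.96 (SE 0.23, adjusted p = 8.3e-07). Nxpe2 (-1.72) was below all others too, and Tifa, an adaptor of NF-kB signalling (-1.73), overlapped with 1 array of 129S1/SvImJ.

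Some large differences were shared with another strain and so fell outside the naming rule; these 3 were chosen after their values were seen. Reep3, a protein that shapes the endoplasmic reticulum, had the largest difference of all genes, -3.89 (SE 0.08). It was at 5.69, 5.61 and 5.70 in SM/J and had a median of 10.08 in the others, but I/LnJ was lower still with a mean of 5.12. Rassf4 (2.88) was higher in DBA/2J than in SM/J, with a mean of 10.09, and Trim34a (2.75) was at 7.87 in C57BL/6J.

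A second comparison set the SM/J mean against the spread between the other strain means, with the strain as the unit. It assumes that the SM/J mean varies as the other strain means do, and it does not use the scatter among the SM/J arrays. For Orm1, where the other strains lay close together, the standard error was 0.14 here against 0.21 in the first comparison. There 25 genes passed (0.137%), 14 higher and 11 lower, and 49 passed without array 1. In the full set 1263 had an unadjusted p under 0.05 (6.94%). With the strains treated in turn in the same way, 0 genes (A/J, with 569 at an unadjusted p under 0.05) to 30 (I/LnJ) passed. Orm1 had the smallest p (adjusted p = 0.000264), followed among the lower genes by Cstf3, a factor of pre-mRNA 3' end cleavage (adjusted p = 0.00119). Cstf3 was at 5.43, 5.60 and 5.62, below all others (7.15 to 8.06), a difference of -2.05. Odr4 (-1.17), Ppp1r3c (-1.01), Atrnl1 (-2.07), Septin10 (-1.57), Ctr9, a subunit of the Paf1 complex (-0.74), and the ribosomal protein gene Rps9 (-0.48) completed the lower genes named.

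Atrnl1, a relative of attractin, was at 6.42, 5.80 and 6.19 against 7.75 to 8.71. Lyz1 also passed (adjusted p = 0.0311), while Lyz2 (adjusted p = 0.108) and H2-Aa (adjusted p = 0.437) did not. Averaged over their probe sets, Odr4 (-0.45), Ctr9 (-0.39) and Rps9 (-0.02) did not pass. Ctr9 did not pass without array 2 (-0.57) either, nor Rps9 without array 3 (-0.40), with a trend in limma's variance prior or among genes above the median gene. Rps9 and 5 others of 12 ribosomal protein genes were called lower on chow, with differences from -0.48 to -0.19 and a list median of -0.18, and without array 3, 3 were lower.

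The 8 higher genes with the smallest p were Tmco2 (1.00, adjusted p = 0.00069), Col4a3 (1.04), Llgl1, a cell polarity protein (0.91), Col4a4 (1.01), C030034I22Rik (1.30), Neu2, a cytosolic sialidase (0.99), Eef1e1 (0.66) and Mthfd1, an enzyme of the folate cycle (0.52). In all 8 the 3 SM/J arrays lay above all others. Col4a3 and Col4a4 encode chains of the type IV collagen of basement membranes and lie head to head in the genome. Col4a3 was at 5.56, 5.80 and 4.65 against 4.10 to 4.52, and Col4a4 at 4.96, 5.64 and 5.01 against 3.92 to 4.39. Tmco2 was at 4.57, 4.10 and 4.47 against 3.19 to 3.53, below the median level of an array. The mean of the other strains was below that level too for Col4a3 (4.29), Col4a4 (4.19), C030034I22Rik (4.34) and Neu2 (4.57). It was above that level for Llgl1 (6.72) and Eef1e1 (7.33). A further probe set of Col4a4 gave 0.05 and was not called, while averages over probe sets still passed for Col4a4 (0.58) and Col4a3 (0.67). Mthfd1 was bright, at 11.55, 11.60 and 11.88 against 11.04 to 11.33.

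The SM/J females on the atherogenic diet, 3 other animals, gave the same comparison in independent arrays. There 1987 genes were called (10.9%), 829 higher (4.56%) and 1158 lower (6.37%). Without array 2 of that diet the count was 1218, and without array 3 it was 1102, and the overlap that follows was taken from all arrays. Of the 2015 genes called on chow 1011 were called with the same sign, which is 50.2% of the chow calls and 50.9% of those on the other diet. Of the 155 genes that were called at 2-fold or more on chow, 149 had the same sign and 131 were also called with it. Lyz1 was at 9.29, 8.74 and 9.10 on the atherogenic diet, below all others (11.10 to 14.01), a difference of -3.09 (SE 0.11), and Lyz2 differed by -2.68. Orm1 differed by -1.75, Cyp2c23 by 2.73, Gdpd3 by 3.84, Cyp17a1 by 2.08 and H2-Aa by -2.12, and each was called. Rgs16 (0.35), Sult1e1 (0.43) and Noct were not called there.

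**Figure D5:**
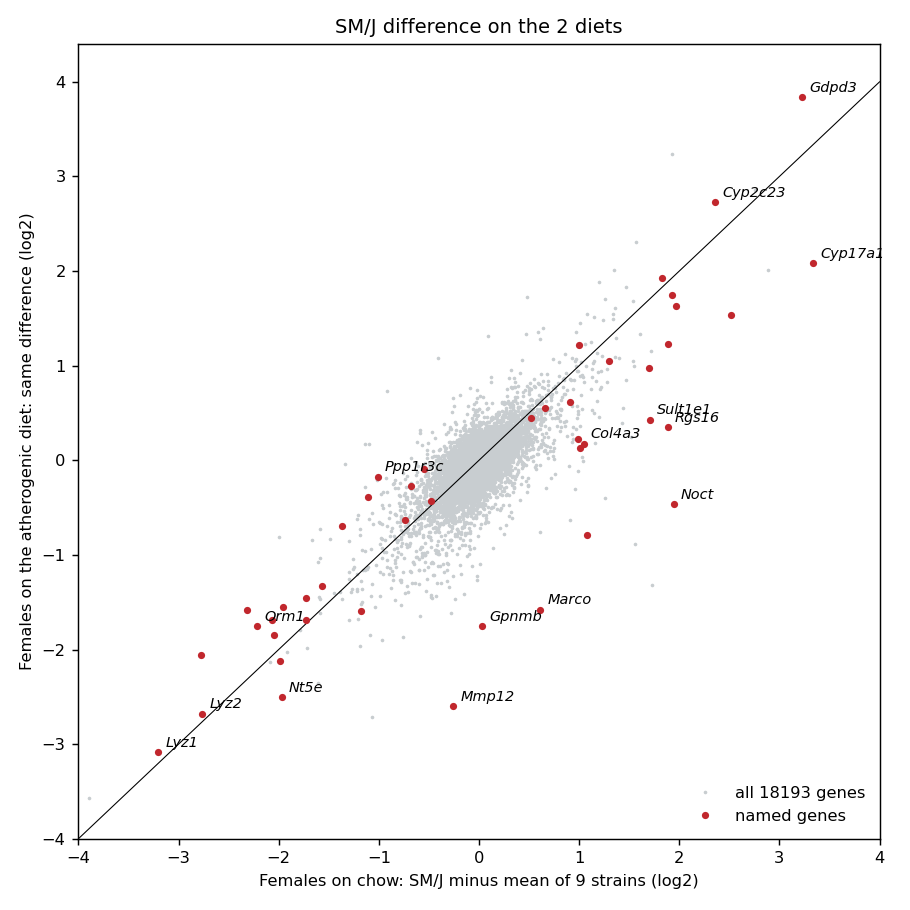
Difference of SM/J from the mean of 9 strains in females on chow (horizontal axis, log2) and on the atherogenic diet (vertical axis, log2) for 18193 genes (grey) and the named genes (red), with a line of equality. Lyz1, Lyz2 and Cyp2c23 lie near the line, Noct lies at 1.94 on chow and -0.47 on the other diet, and Mmp12, Marco and Gpnmb lie far below it.

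The difference of SM/J from the other strains changed with diet in 44 genes (0.242%), 39 of them toward lower values on the atherogenic diet. Without array 3 on chow the count was 28, and without array 3 on the atherogenic diet it was 23. The largest changes were in genes of macrophages. Mmp12, macrophage elastase, was at 4.31, 4.25 and 4.30 in SM/J on chow, overlapping the arrays of the other strains (4.09 to 5.44). Its SM/J mean there was below all other strain means, by little, and the gene was not called. On the atherogenic diet it was at 4.47, 4.21 and 4.50 in SM/J and at 4.62 to 10.75 in the others, and its difference changed by -2.34 (SE 0.28, adjusted p = 1.2e-06).

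Marco (-2.19), Atp6v0d2, a subunit of the vacuolar proton pump of macrophages and osteoclasts (-1.86), and Gpnmb, a glycoprotein of lipid-laden macrophages (-1.79), changed in the same direction. The change of Atp6v0d2 was not called without array 1 on chow (-1.62) or array 2 on the atherogenic diet (-1.75). Gpnmb was at 5.59, 5.55 and 5.60 in SM/J on the atherogenic diet against 5.23 to 12.14 in the others. All 12 macrophage markers were lower in SM/J on that diet, with a median of -0.94, and the change with diet passed for Marco and Cd68. Toward higher values went Hsd17b6 (0.72), Serpina11 (0.67), Lsm6 (0.45) and Itih3 (0.41), which were lower in SM/J on chow and closer to the other strains on the atherogenic diet. None of these 4 passed without array 2 or without array 3 on chow. Col4a3 was at 4.41, 4.34 and 4.49 on the atherogenic diet, where Col4a4 (0.13) and Neu2 (0.22) were not called.

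A gene with several probe sets gives a check of the array. Of the 155 genes at 2-fold or more, 84 had 1 probe set, and 38 had 56 other probe sets with a mean above 6. Of those 56, 45 were called in the same direction, 11 were not called and 0 were called in the opposite direction. Called genes under 2-fold were not part of this count. Among them, probe sets of H2-D1 (-2.99 to 2.38) and of Hsd17b13 (-0.51 and 0.69) were called in both directions. Nt5e had a second probe set at -1.24 (adjusted p = 2.6e-08), and Dbp at 1.46. Differences in the probed sequence between SM/J and the reference can lower a signal without a change in RNA, and their part was not tested. Of the 155 genes, 22 had a neighbour on the chromosome, among the genes measured, that was itself one of them. These made 12 pairs, and 11 went the same way, among them Lyz2 with Lyz1, Orm1 with Orm3, H2-Ab1 with H2-Aa, Septin10 with Sowahc and Atp11a with Mcf2l. Cyp39a1 and Rcan2 went opposite ways, 1.72 and -1.19. Several pairs, such as those of the Lyz, Orm, H2, Cyp2b and Mt genes, belong to the same gene family, and their probe sets may share signal. The number of pairs to expect among so many genes was not worked out.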

How the data were processed

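Liver RNA was primed from poly(A) tails, copied with T7 RNA polymerase into biotin-labelled RNA and hybridised to 1 array per animal, per the labels' protocols. The authors deposited log2 intensities made with RMA, per the submitters' processing notes, with no version or list of co-normalised arrays in the sources used here. The values ran from 2.90 to 14.74, carry no detection calls and have no counts behind them; precision is set by how many arrays a group holds.

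Of 45101 probe sets, 34958 had 1 gene symbol and 34945, without control probe sets, were used, and 34741 of these were named by gene ID through RefSeq's gene list of GRCm38.p6. Genes with several probe sets (9010 of 18193) took the probe set whose mean was highest across the 120 arrays of the 10 younger strains.

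The 30 female chow arrays entered 1 limma 3.58.1 fit in R 4.3.3 (lmFit, eBayes, 20 residual degrees of freedom), with a contrast of SM/J against the equally weighted mean of 9 strains and Benjamini-Hochberg adjustment over all genes. A second fit took the 10 strain means as observations (8 residual degrees of freedom), another the 30 female arrays on the atherogenic diet, and the last all 60 (40 residual degrees of freedom) for the change with diet. Replicate numbers are labelled as separate animals, and the labels do not pair arrays across strains, so no block was used. With strain means removed, 41 of 135 same-numbered pairs of different strains correlated above 0.1. The median correlation was 0.012, against -0.016 for pairs with other numbers. Of the 30 arrays, 15 correlated best with arrays of their own number, so these values do not show that pairing was absent.

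Named genes were the 12 largest differences each way among called genes with an SM/J mean outside the other strain means, the 8 smallest p each way of the second fit, the 4 largest changes with diet each way, and the called members of 46 gene lists, the largest first and at most 6 a list, with other members given as values (2 of the lists held the sex and strain checks, of which 1 strain check gene was called). Members, lists and rules were chosen with earlier results of these data known. On simulated data with 18193 genes the first fit recovered 92%, 100% and 100% of changes of 0.5, 1 and 2 (false calls 3.79%). The second recovered 62.5%, 87% and 98% (3.13%). The atherogenic diet fit recovered 90.5%, 99.5% and 100% (5.07%), and the change with diet 73.5%, 98.5% and 99.5% (4.4%). For the second fit strain means were simulated, with a spread between strains for each gene that was the same for SM/J. For the other fits arrays were simulated, with the same spread of a gene in all strains, SM/J included. These arrays had no strain differences besides the added changes. None of the rates therefore covers the wider scatter of the real SM/J arrays. Promoter windows came from RefSeq, where Orm1 and Col4a3 had no entry. Python 3.11.15, pandas 2.3.3, numpy 2.4.6, Biopython 1.88, matplotlib 3.10.9 and, in R, the data.table package (1.17.8) were used.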

Additional observations from a re-analysis of the deposited data

Results flagged for a closer look

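By limma's test over 60 female arrays, the SM/J difference from the other 9 strains changed with diet for the 11 genes below. These were named by largest difference, smallest p or largest change with diet, and Cd68, named only as a list member, passed as well. Toward lower values on the atherogenic diet went Mmp12 (-2.34), Marco (-2.19), Atp6v0d2 (-1.86), Gpnmb (-1.79), Col4a4 (-0.88), Col4a3 (-0.87) and Neu2 (-0.76). Toward higher values went Itih3 (0.41), Lsm6 (0.45), Serpina11 (0.67) and Hsd17b6 (0.72).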

How the results depend on the processing

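With 3 SM/J arrays the counts depended on single arrays. A set of 24 genes had the largest differences among called genes whose SM/J mean lay outside the other strain means. They kept their direction and their call in each of the 47 or 48 settings that tested them. They were picked for size from the same arrays, so this could hardly come out otherwise. Their sizes did move, as for Sult1e1 (1.70 to 1.04 without array 3) and H2-Aa (-1.99 to -1.06 with the mean of the probe sets). Leaving out any of the 30 arrays gave 1302 to 2165 called genes on chow (728 to 1171 higher, 574 to 1079 lower, 131 to 201 at 2-fold). In the other comparisons only SM/J arrays were left out in turn, which gave 24 to 49 against the spread between strains (13 to 27 higher, 10 to 22 lower, 10 to 19 at 2-fold), 1102 to 1732 on the atherogenic diet (443 to 796 higher, 659 to 936 lower, 170 to 216 at 2-fold) and 23 to 55 for the change with diet (0 to 21 higher, 23 to 50 lower, 13 to 19 at 2-fold). At adjusted p under 0.01 the counts were 1218 (665 higher, 553 lower), 15 (9 and 6), 1139 (435 and 704) and 24 (0 and 24). Among genes above the median gene, 11 passed against the spread between strains (3 higher, 7 at 2-fold), and for the change with diet 24 were lower and 9 were at 2-fold, from fewer genes tested. With the replicate number as a block, which the labels do not give as a pairing, 2025 genes were called on chow, of which 1946 were shared. The counts were 2038 on the atherogenic diet and 40 for the change with diet. Of 11046 values of single genes 10298 kept their side of the threshold and their direction, 745 were no longer called and 3 turned: Fads1 to 0.073 and H2-D1 to -0.31 with the mean of the probe sets, and Cyp46a1 to 0.0093 without C3H/HeJ. The cause was not tested.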

Other observations

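Several gene lists not described above held members called on chow by limma. Of 27 genes of the growth hormone and IGF axis 6 were higher and 0 lower, led by Igfbp1, the binding protein Igfbp2 (0.69) and the insulin receptor substrate Irs2 (0.62), and without any single SM/J array the higher ones numbered 3, with 4 lower without array 1. Of 21 genes of iron and haem 2 were higher and 5 lower, and without array 2 the lower ones numbered 3. Hamp2, a hepcidin gene, differed by 1.22, and Alad, an enzyme of haem synthesis, by -0.78. Of 20 glucuronosyl- and sulfotransferases 6 were higher and 1 lower, of 30 genes of amino acid breakdown and the urea cycle 5 and 2, and of 35 NRF2 targets and glutathione transferases 5 and 4. Without array 2 these counts were 3 and 1, 1 and 3, and 3 and 2, and for the amino acid list 2 and 2 without array 3. Gsta2, a glutathione transferase, differed by 1.42.

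Of 34 interferon response genes 1 was higher and 3 were lower on chow, and 0 and 10 on the atherogenic diet. Without array 1, 2 or 3 on chow the lower ones numbered 6, 0 and 0. Of 27 chemokine and inflammation genes 0 were higher and 3 lower on chow, and 0 and 12 on the atherogenic diet, where the change with diet passed for 2. Without array 1, 2 or 3 on chow the lower ones numbered 5, 1 and 1. Of 25 coagulation genes 2 were higher and 4 lower, and of 12 liver serpins 1 and 2. Of 25 ER stress and heat shock genes 3 were higher and 2 lower, of 28 genes of oxidative phosphorylation 3 and 1, of 20 bile acid transport genes 3 and 1, of 26 proliferation genes 1 and 1, and of 11 LXR targets 1 and 1. Of 13 carboxylesterases and of 3 major urinary protein genes 1 each was lower. Each of the lists from coagulation to major urinary proteins, like the hepatocyte and endothelial markers, had a count that moved by over 1.5 times without at least 1 SM/J array.

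Of 8 hepatocyte markers 1 was higher and 1 lower, and of 6 endothelial markers 1 was higher, Lyve1 (1.02), and 2 were lower. Of 5 pancreas markers 1 was lower, Cela1 (-1.06). Among 4 erythroid, 3 adipocyte and 5 muscle markers limma called 0, with 1, 0 and 0 at an unadjusted p under 0.05.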
